A study of Homo sapiens with 8 samples.

Results

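The probe sets described here read differently with an shRNA against ZEB1 and a scrambled shRNA, and did so unequally in 2 lines. The lines, PC3-EMT1 and PC3-EMT14, are mesenchymal prostate cancer cells. ZEB1 is a zinc finger repressor of epithelial genes, CDH1 among them, and a driver of the epithelial-mesenchymal transition (EMT), in which epithelial cells lose their junctions and become motile. It binds paired E-box sequences and is held in check by the microRNAs of the miR-200 family, which it represses in turn. Taking it away from a mesenchymal carcinoma cell can return epithelial traits, the reverse transition known as MET. The comparison asks which transcripts differed more between the 2 shRNAs in 1 of the lines than in the other. With 1 array for each line and shRNA, variation between arrays and an effect of ZEB1 loss cannot be told apart.

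PC3-Epi is a luciferase-positive epithelial derivative of PC3, a human prostate cancer line. PC3-EMT1 and PC3-EMT14 are mesenchymal populations isolated after PC3-Epi had been co-cultured with human macrophages, and neither is described as a single clone. Each was transduced with a lentivirus carrying a scrambled shRNA (Scr) or sh4, 1 of the shRNAs against ZEB1, and was kept under selection. The labels call the Scr cells mesenchymal and the sh4 cells epithelial. All 4 transduced populations carry the luciferase of PC3-Epi and a lentiviral vector, were grown in RPMI with FBS, and were measured on 1 array each, and the untransduced lines were measured on 1 array each as well. With 1 array for each line and shRNA there is no replicate spread, so no test was made and every value below is a description of these arrays. Nothing says that the arrays came from more than 1 culture of a line.

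The response of a line was defined as log2 sh4 minus log2 Scr, and the line difference as the response of PC3-EMT14 minus that of PC3-EMT1. Of 41091 probe sets with 1 gene symbol, 473 (1.15%) had a line difference of log2 1, a 2-fold ratio, or more. These members belong to 417 of 19775 genes. The response was higher in PC3-EMT14 for 179 (0.436% of all tested) and lower for 294 (0.715%). By contrast, 675 probe sets (1.64%) differed 2-fold or more between sh4 and Scr in PC3-EMT14 and 244 (0.594%) did so in PC3-EMT1. Among the genes 393 are protein-coding and 20 are long non-coding RNAs. Just inside the limit lay LINC01653 (-1.0003) and MED23 (-1.0004), and just outside it CDCP1 (-0.9997) and INHBC (0.9996).

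The line differences of all probe sets had a median of 0.000357 and an SD of 0.342. The 62 control probe sets of the array had an SD of 0.320 and a lowest value of -0.92, and 0 of them reached the limit. All 4 arrays lay under the highest of the 27 B. subtilis controls, which stood at log2 6.00, for 71 members. With every value under this control set to it, 314 of the 473 (66.4%) still had a line difference of log2 1 or more in the same direction. A set of 287 members, 123 higher and 164 lower, kept the limit with this floor and after quantile normalization and had an array at log2 7 or above. These are called firm below, and genes are named from them or from lists of genes of known pathways.

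The targeted gene was lower with sh4 in both lines. Levels on the 4 arrays are given throughout in the order PC3-EMT1-Scr, PC3-EMT1-sh4, PC3-EMT14-Scr and PC3-EMT14-sh4, in log2 units. The brightest ZEB1 probe set read 9.87, 9.12, 10.08 and 9.01, responses of -0.74 and -1.07 in PC3-EMT1 and PC3-EMT14 and a line difference of -0.32. A second bright probe set read 8.77, 8.08, 9.04 and 8.00, a line difference of -0.35, and a dim one near background gave -0.15. Only the remaining ZEB1 probe set was a member. Its levels of 5.82, 5.01, 6.39 and 4.32 gave -1.26, but 3 of the 4 lay under the highest control, and with the floor the value was -0.39. The residual ZEB1 signal was thus similar in the sh4 arrays, with 9.12 and 9.01 on the brightest probe set.

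The epithelial markers checked had line differences under the limit on the deposited values. CDH1, which encodes E-cadherin, read 5.61, 9.63, 5.89 and 9.75, a line difference of -0.17, with both Scr arrays under the highest control. CDH3, another classical cadherin, gave -0.03, the claudin CLDN7 -0.07, the adhesion molecule EPCAM -0.35 and the splicing regulator ESRP1 0.60 and 0.22 on its 2 probe sets. All Scr levels of ESRP1 lay under the highest control, and with the floor these became 1.15 and 0.61, the former past the limit. The mesenchymal filament VIM read 13.46, 13.34, 13.44 and 12.90, so sh4 cells labelled epithelial held most of their vimentin signal. Of 9 macrophage markers 0 were at the limit, and the geometric mean of their levels ran from 44.4 to 48.7 on the linear scale over the 4 arrays. Among 27 genes of epithelial junctions, taken by the brightest probe set of each gene, 1 (CLDN1) reached the limit, and the median was -0.05, against 0.02 over all 19775 genes, of which 104 (0.526%) were higher and 85 (0.43%) lower at the limit.

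**Figure D1:**
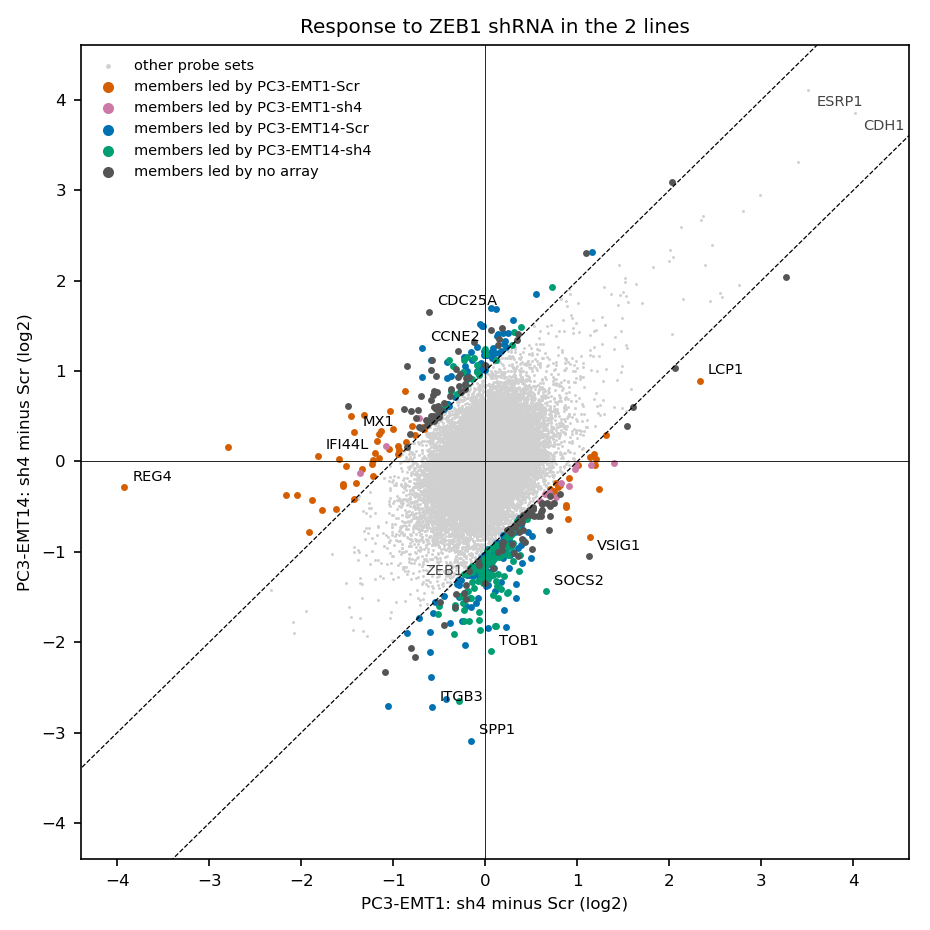
Response of each probe set with 1 symbol, log2 sh4 minus Scr, in PC3-EMT1 (x axis) and PC3-EMT14 (y axis), with members coloured by the array that leads them and dashed lines at a line difference of log2 1 either way. CDH1 and ESRP1 lie between the dashed lines at the upper right, the 3.64 of REG4 lies far to the left, and 233 of the 473 members reached a 2-fold response in PC3-EMT14 alone.

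Most members with a 2-fold response had it in PC3-EMT14. Of the 473, 233 (49.3%) responded 2-fold in PC3-EMT14 alone, 67 with a higher and 166 with a lower line difference. A further 46 did so in PC3-EMT1 alone, 33 higher and 13 lower. Both lines responded 2-fold in the same direction for 7. Neither line reached 2-fold for 186 (39.3%), whose line difference adds smaller opposite responses. VSIG1, which encodes an immunoglobulin-domain membrane protein, was the only member with 2-fold responses in opposite directions (5.33, 6.45, 7.16 and 6.12). Its value on PC3-EMT1-Scr lay under the highest control, and with the floor the line difference was -1.50 in place of -2.17. The response in PC3-EMT1 was then 0.45, so with the floor 0 members had 2-fold responses in opposite directions.

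A line difference rests on 4 arrays, and any 1 of them can carry it. An array was said to lead where it was the highest or lowest of the 4 and its gap to the nearest of the others was at least the range of those 3. PC3-EMT14-Scr led 157 members (33.2%), 102 as the highest and 55 as the lowest array. PC3-EMT14-sh4 led 114, with 93 as the lowest and 21 as the highest. PC3-EMT1-Scr led 58, of which 39 were highest and 19 lowest there, and PC3-EMT1-sh4 led 14. No array led the other 130. With the floor, 5 members were lowest on PC3-EMT1-Scr in place of 19, and 4 highest on PC3-EMT1-sh4 in place of 11. A Scr array thus led 215 members and a sh4 array 128. How often each array leads over all 41091 probe sets was not counted, so whether these shares are particular to the members is not known.

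**Figure D2:**
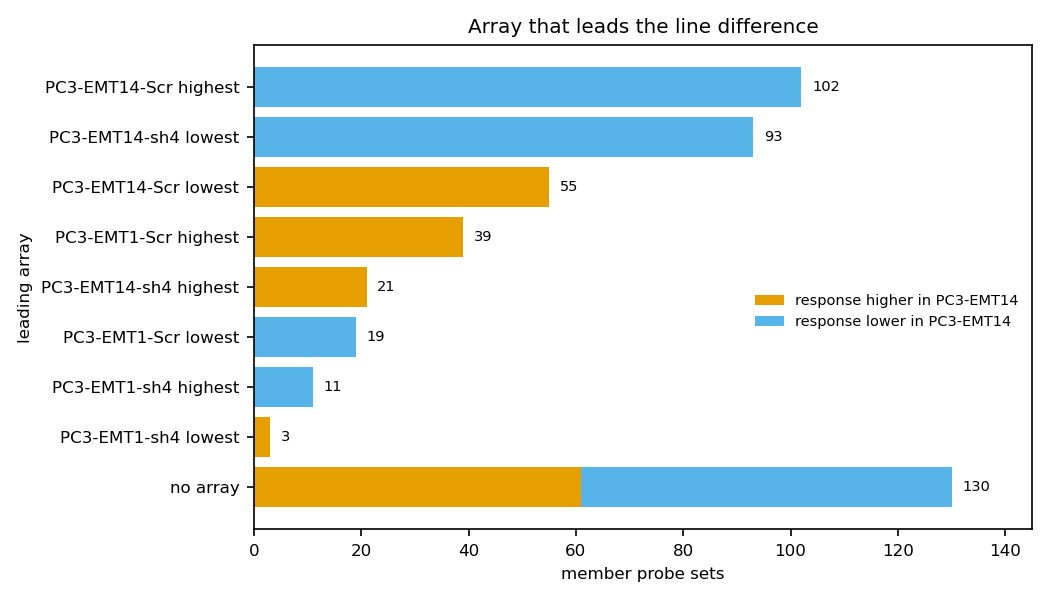
Number of member probe sets (x axis) by the array that leads the line difference and by whether it is the highest or lowest of the 4, coloured by the direction of the line difference. PC3-EMT14-Scr leads 102 as the highest and 55 as the lowest array, and PC3-EMT14-sh4 leads 93 as the lowest.

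The untransduced arrays, which the rule did not use, give the line difference without any shRNA. They were scaled apart from the transduced arrays, so only PC3-EMT14 minus PC3-EMT1 within each kind of array is compared. For members highest on PC3-EMT1-Scr, the median of this difference was -0.06 without shRNA, -1.50 with Scr and -0.09 with sh4. The untransduced value was nearer to that of sh4 for 37 of these 39. The same held for 82 of 102 members highest on PC3-EMT14-Scr, where the medians were 0.24, 1.11 and -0.06, and for 47 of 55 lowest there, with -0.13, -0.93 and 0.28. For members lowest on PC3-EMT14-sh4 the untransduced value was nearer to that of Scr for 82 of 93, with medians of 0.02, 0.17 and -1.03. These classes were defined by 1 Scr or sh4 array standing apart, which by itself widens the gap on that kind of array. The counts are thus partly fixed by the choice of members and are description only. With the untransduced arrays put in place of Scr as controls, 93 of the 473 (19.7%) stayed at the limit in the same direction and 60 changed sign. Of those that stayed, 53 were lowest on PC3-EMT14-sh4 and 8 were highest on PC3-EMT14-Scr. Only 1 of the 55 lowest on PC3-EMT14-Scr and 1 of the 39 highest on PC3-EMT1-Scr stayed. This exchange takes out the array that set Scr-led members apart and keeps the one that set sh4-led members apart. These counts, and the values of single genes against the untransduced arrays below, are thus also partly fixed by the choice of members.

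**Figure D3:**
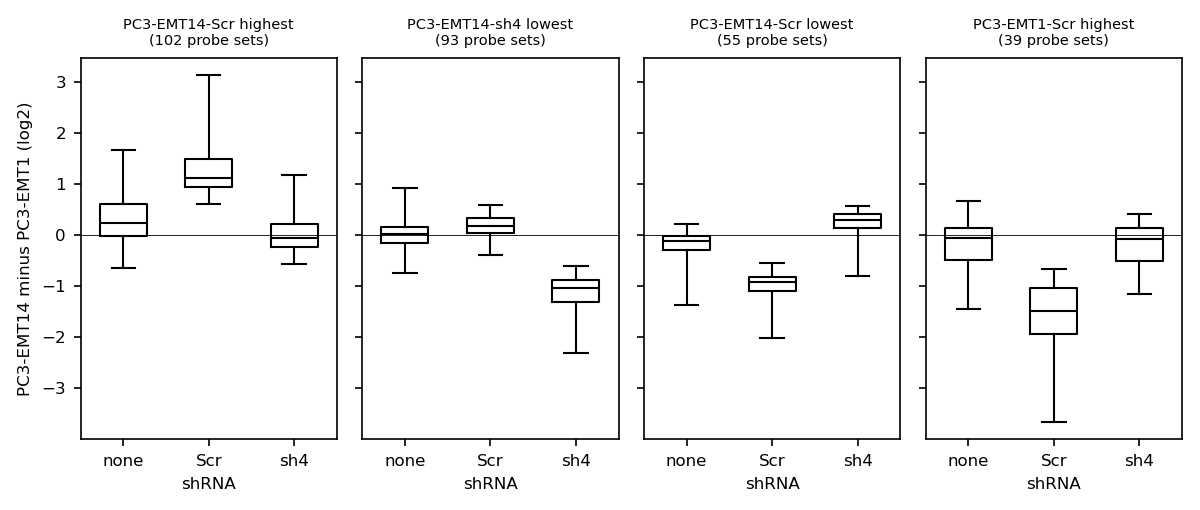
PC3-EMT14 minus PC3-EMT1 (y axis, log2) on the untransduced, Scr and sh4 arrays for members of the 4 most frequent leading arrays, with boxes at the quartiles, a line at the median and whiskers to the extremes. In the class highest on PC3-EMT1-Scr the medians are -0.06, -1.50 and -0.09, and in the class lowest on PC3-EMT14-sh4 they are 0.02, 0.17 and -1.03.

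Of the 27 gene lists, that of the interferon response had the largest share of its genes at the limit, 36.4%. Interferons are secreted proteins that switch on antiviral genes in the cells that sense them, and double-stranded RNA in the cytoplasm can start the same program. Of 33 genes of a list of this pathway, 12 were higher at the limit and 0 lower by the brightest probe set. Above 0 lay 30 of the 33, against 10530 of all 19775 genes. The median line difference was 0.80, from a median response of -0.65 in PC3-EMT1 and 0.27 in PC3-EMT14. PC3-EMT1-Scr was the highest array for 28 of the 33 and PC3-EMT14-Scr the lowest for 22. Among 10 reference genes these counts were 1 and 4, and the shares over all genes were not counted. The median of PC3-EMT14 minus PC3-EMT1 was -0.49 without shRNA, -1.42 with Scr and -0.47 with sh4. The gap between the lines was thus widest on the Scr arrays.

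The antiviral effectors showed this order gene by gene. MX1, a dynamin-like GTPase that blocks viral replication, read 9.77, 8.34, 7.27 and 7.60, a line difference of 1.75. RSAD2, which encodes the antiviral enzyme viperin, read 8.39, 7.07, 5.76 and 6.27, giving 1.84. CMPK2, a mitochondrial nucleotide kinase encoded beside RSAD2, read 9.15, 8.28, 7.50 and 8.28 and gave 1.66. In all 3 the array highest of the 4 was PC3-EMT1-Scr and the lowest PC3-EMT14-Scr. OAS1, which makes the 2-5A messenger that activates RNase L, read 8.64, 7.13, 6.03 and 5.98 on its brightest probe set, a line difference of 1.47, and a second probe set gave 2.10. OAS2, of the same family, read 8.48, 6.94, 6.67 and 6.40 and gave 1.27. MX2, a relative of MX1, read 7.38, 6.22, 5.96 and 6.27 and gave 1.46. For these genes PC3-EMT1-sh4 lay nearer to the PC3-EMT14 arrays than to PC3-EMT1-Scr.

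Genes with other parts in the pathway followed. IFIH1, the cytoplasmic sensor MDA5 of double-stranded RNA, read 7.96, 6.92, 6.19 and 6.75, a line difference of 1.59, although the mean over its probe sets was 0.54. IFIT1 and IFIT2 bind viral RNA or its translation machinery. IFIT1 read 12.42, 11.59, 10.02 and 10.32, giving 1.12, and IFIT2 read 11.63, 10.93, 9.73 and 10.46, giving 1.43, with 0.70 on another probe set. IFI44L, a common marker of interferon exposure, read 8.47, 6.65, 6.67 and 6.73 and gave 1.89, with PC3-EMT1-Scr standing alone above the other 3. IFI27, a mitochondrial protein also used as such a marker, read 7.61, 6.15, 5.55 and 6.05, giving 1.96, or 1.51 with the floor. HERC6, a relative of the ISG15 ligase, read 8.98, 7.97, 7.55 and 7.91 and gave 1.37. Outside the list, IFITM1, a membrane protein that blocks viral entry, read 9.76, 7.59, 7.32 and 6.95 and gave 1.80, with a probe set of a class that can bind the transcripts of its near relatives. ZC3HAV1, an antiviral zinc finger protein, read 9.83, 9.25, 7.58 and 8.70 and gave 1.70, against 0.51 and 0.52 on 2 brighter probe sets. The only lower member of the list was ISG20, an exonuclease. It read 10.70, 10.89, 11.37 and 10.55 on its member probe set and gave -1.02, with -0.94 on a brighter one. By the brightest probe set 3 of the 33 genes of the list lay below 0, ISG20 among them. With the untransduced arrays as controls, the line difference had the opposite sign for the OAS1 probe set at 2.10 (-0.20), MX2 (-0.28) and IFITM1 (-0.065). It kept its sign but fell under the limit for IFI27 (0.97), IFIH1 (0.88), the IFIT2 probe set at 1.43 (0.84), IFI44L (0.57) and OAS2 (0.47). The same was true of HERC6 (0.43), MX1 (0.32), ISG20 (-0.20), CMPK2 (0.18), IFIT1 (0.023) and the brightest OAS1 probe set (0.0096).

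The promoters of this group are shown because the pathway is known to act through a short element there. Promoters of 300 bases, from 250 before to 50 after the start of a gene, were taken from RefSeq on GRCh38.p14. The core of the interferon-stimulated response element was searched as GAAANNGAA on both strands, a motif chosen after the values were seen. It was found in 6.72% of 15382 promoters of genes on the array, in 9 of 27 (33.3%) of genes highest on PC3-EMT1-Scr and in 7 of 10 (70%) of the list's member genes with a promoter in the table. The list was made of known interferon response genes, so a high share there follows from the list and says nothing of these arrays. The 9 include IFI44L, MX1, IFIH1, RSAD2 and IFI27 of the same list, so the 33.3% also follows in part from the known interferon genes in that class. The promoters of IFI44L (chr1:78620198-78620497, plus strand) and IFIH1 (chr2:162318635-162318934, minus strand) are printed from 5′ to 3′ along the gene, with the matches in capitals, 2 in IFI44L and 4 overlapping or separate ones in IFIH1.
IFI44L: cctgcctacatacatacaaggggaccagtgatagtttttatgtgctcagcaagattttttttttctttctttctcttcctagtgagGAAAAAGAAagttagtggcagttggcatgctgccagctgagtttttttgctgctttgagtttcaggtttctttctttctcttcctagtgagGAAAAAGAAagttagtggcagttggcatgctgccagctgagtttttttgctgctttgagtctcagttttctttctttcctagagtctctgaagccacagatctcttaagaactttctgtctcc
IFIH1: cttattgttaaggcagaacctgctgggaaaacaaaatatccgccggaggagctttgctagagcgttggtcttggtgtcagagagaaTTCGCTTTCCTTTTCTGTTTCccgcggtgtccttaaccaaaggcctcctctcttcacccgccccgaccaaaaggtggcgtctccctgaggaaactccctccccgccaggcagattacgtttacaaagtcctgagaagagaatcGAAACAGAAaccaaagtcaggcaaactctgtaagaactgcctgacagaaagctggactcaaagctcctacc

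**Figure D4:**
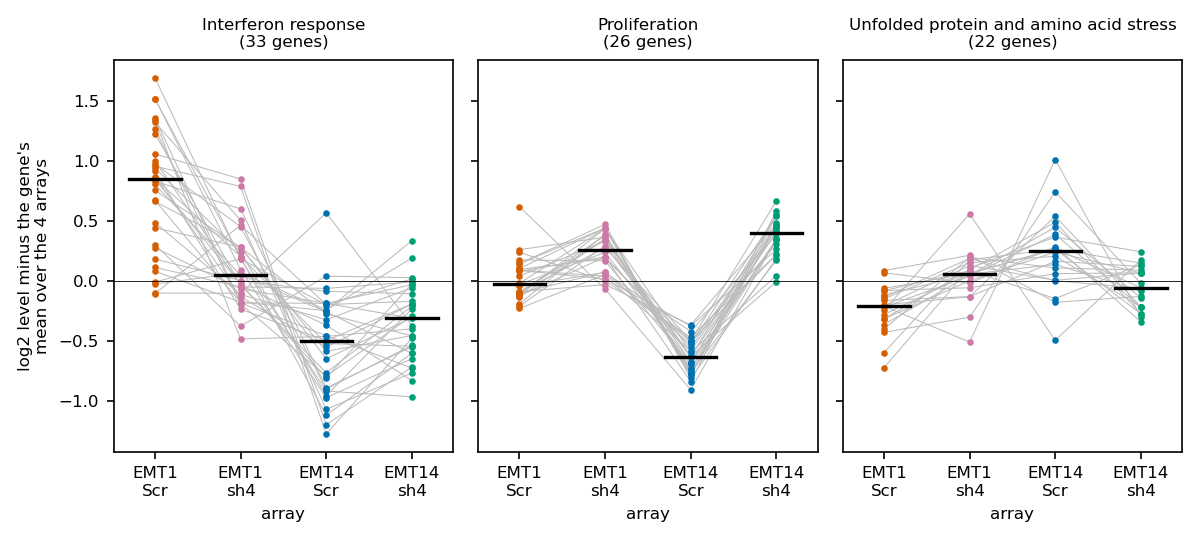
Log2 level of each gene of 3 lists on the 4 transduced arrays, minus the gene's mean over them (y axis), by the brightest probe set, with grey lines joining a gene and black bars at the median. PC3-EMT1-Scr is the highest array for 28 of 33 interferon response genes, PC3-EMT14-Scr is the lowest for 26 of 26 proliferation genes and the highest for 15 of 22 stress genes. For 10 reference genes, not drawn, these counts are 1, 4 and 1.

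Proliferation genes also had a higher line difference, and here PC3-EMT14-Scr was the lowest array. Cells that enter S phase raise the genes of DNA replication through E2F factors, and those that go on to mitosis raise cyclins and spindle genes. Of 26 proliferation genes 4 were higher at the limit and 0 lower, 26 lay above 0, and the median was 0.71. Over all 19775 genes 10530 lay above 0. PC3-EMT14-Scr was the lowest array for 26 of 26, and for 4 of 10 reference genes. Median responses were 0.29 in PC3-EMT1 and 1.04 in PC3-EMT14, and the median of PC3-EMT14 minus PC3-EMT1 was -0.06 without shRNA, -0.65 with Scr and 0.18 with sh4. In bulk RNA, fewer cycling cells and less of these RNAs in each cell cannot be told apart.

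CCNE2, cyclin E2 of the entry into S phase, had the largest value of the list at 1.94, with levels of 9.32, 8.64, 7.79 and 9.05. CCNA2, cyclin A2, read 9.06, 9.18, 8.14 and 9.53 and gave 1.27. CDK1, the kinase of mitotic entry, read 12.26, 12.25, 11.39 and 12.43 and gave 1.05, but its other 3 probe sets gave -0.01, 0.16 and 0.21. In each of these PC3-EMT14-Scr stood below the other 3 arrays. MCM4, a subunit of the replicative helicase, read 8.98, 8.92, 8.30 and 9.33 and gave 1.08, and another of its probe sets gave 1.18, but the other 3 gave 0.14, -0.07 and -0.31. Probe sets that were not the brightest of their gene made members of MKI67, the proliferation antigen Ki-67 (1.44), CCNB1, cyclin B1 (1.27), RRM2, the small subunit of ribonucleotide reductase (1.19), and CENPF, a kinetochore protein (1.15). The brightest probe sets of these 4 genes gave 0.65 to 0.79. Against the untransduced arrays, the probe sets read above gave 0.40 for CCNE2, 0.35 for CCNA2, 0.24 for CDK1 and 0.26 for MCM4.

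Other members outside the list have the same roles. DTL, a substrate receptor that clears the licensing factor CDT1, read 10.58, 10.64, 9.41 and 11.10, a line difference of 1.63, and 1.27 on its second probe set. MCM10, needed to activate replication origins, read 7.53, 7.47, 6.40 and 7.92 and gave 1.58. CDC25A, the phosphatase that activates the cyclin-dependent kinases of S phase, read 6.69, 6.07, 5.50 and 7.16 and gave 2.27, 1.77 with the floor, with 1.20 and 0.37 on 2 brighter probe sets. HELLS, a chromatin remodeller of dividing cells, read 7.97, 7.87, 6.97 and 8.24 and gave 1.36, with 1.34 on another probe set. WDHD1, a replisome adaptor, had 3 member probe sets (1.10, 1.12 and 1.35, the last 0.41 with the floor), led by PC3-EMT14-sh4 as the highest array. SGO2, which protects centromeric cohesion, had 2 (1.08 and 1.17), as did ATAD2, a bromodomain coactivator of E2F (1.14 and 1.16, against 0.46 on its brightest). For DTL, MCM10, CDC25A, HELLS, SGO2 and ATAD2 the lowest of the 4 arrays on these probe sets was PC3-EMT14-Scr. Against the untransduced arrays, the probe sets read above gave 0.57 for DTL, 0.59 for MCM10, 0.81 for HELLS and 1.15 for CDC25A.

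E2F sites are shown for the same reason as above. The letters TTTGGCGC and TTTCGCGC, on both strands and chosen after the values were seen, were found in 1.55% of all promoters and in 5 of 43 (11.6%) of genes lowest on PC3-EMT14-Scr. The 5 genes were DTL, ZNF367, HELLS, EXO1 and CDK1. CDK1 is of the proliferation list and DTL and HELLS have like roles, so this share also follows in part from the genes of the class. The promoters of DTL (chr1:212035498-212035797, plus strand) and HELLS (chr10:94545538-94545837, plus strand) each hold 1 match, in capitals.
DTL: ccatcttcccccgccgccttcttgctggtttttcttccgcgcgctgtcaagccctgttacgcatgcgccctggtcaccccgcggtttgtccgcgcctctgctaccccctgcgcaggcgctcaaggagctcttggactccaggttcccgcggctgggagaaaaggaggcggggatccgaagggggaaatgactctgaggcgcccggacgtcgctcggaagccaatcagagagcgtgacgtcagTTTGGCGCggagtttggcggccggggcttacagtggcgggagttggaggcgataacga
HELLS: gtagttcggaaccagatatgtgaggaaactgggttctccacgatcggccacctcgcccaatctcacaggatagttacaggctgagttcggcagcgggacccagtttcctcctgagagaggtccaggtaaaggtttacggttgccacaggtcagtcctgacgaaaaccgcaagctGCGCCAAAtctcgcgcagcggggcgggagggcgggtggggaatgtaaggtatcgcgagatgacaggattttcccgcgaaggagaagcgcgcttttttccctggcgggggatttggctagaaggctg

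The E-box CACCTG that ZEB1 is known to bind, searched with its reverse complement CAGGTG, was in 19.6% of all promoters, in 16 of 126 (12.7%) of members with a higher and in 40 of 212 (18.9%) with a lower line difference. A match, or its lack, in these 300 bases says nothing of binding.

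REG4, a secreted lectin-like protein of intestinal and some carcinoma cells, had the largest line difference of all. It read 8.66, 4.73, 5.00 and 4.71 on 1 probe set and 8.75, 5.96, 5.28 and 5.44 on another, line differences of 3.64 and 2.96, and the remaining, dimmer probe set gave 1.67. PC3-EMT1-Scr alone lay above the highest control. With the floor the values were 2.66 and 2.75. On the untransduced arrays the brighter probe set read 7.37 in PC3-EMT1 and 7.70 in PC3-EMT14, where the highest control was 4.55, so both lines gave REG4 signal without shRNA and, of the transduced arrays, PC3-EMT1-Scr did. NNMT, a nicotinamide-methylating enzyme, followed PC3-EMT1-Scr as well, with 8.17, 6.77, 6.48 and 6.24 and a line difference of 1.16, and 1.09 on a brighter probe set. With the untransduced arrays as controls the line difference was -0.85 for the brighter REG4 probe set and -0.36 for this NNMT probe set.

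Further members with a higher line difference were of mixed function. CLDN1, a tight junction claudin, read 8.79, 8.19, 6.77 and 7.90, a line difference of 1.72, with responses of -0.60 in PC3-EMT1 and 1.12 in PC3-EMT14. Its dimmer probe set gave 0.31, or -0.02 with the floor, and the brighter one gave 0.45 against the untransduced arrays. FKBP5, a co-chaperone of steroid receptors, read 8.71, 8.68, 7.71 and 9.21 and gave 1.53, with 1.09 on a second probe set. THBS1, the matrix protein thrombospondin-1, read 9.01, 8.78, 7.53 and 8.69 and gave 1.39, but its other probe sets had a median of 0.39. EIF5B, a translation initiation factor, read 7.48, 6.63, 6.57 and 7.63 and gave 1.91, but its brightest probe set gave 0.28 and the other 4 from 0.06 to 0.71. GULP1, an adaptor of engulfment, and RGS4, a regulator of G protein signalling, had 2 member probe sets each (1.06 and 1.09, and 1.07 and 1.15), and the higher value of each was -0.036 and -0.39 against the untransduced arrays.

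Members highest on PC3-EMT14-Scr, which have a lower line difference, included genes of the matrix and its receptors. SPP1, the secreted matrix phosphoprotein osteopontin, read 4.19, 4.03, 7.32 and 4.23, a line difference of -2.93 on the deposited values and -1.32 with the floor. All arrays but PC3-EMT14-Scr lay under the highest control, and the gene was chosen for mention after its values were seen. ITGB3, the integrin beta 3 chain, read 7.75, 6.70, 9.29 and 6.58 and gave -1.65, and a dimmer probe set with 3 arrays under the highest control gave -2.14, or -1.27 with the floor. HAPLN1, a link protein of hyaluronan, read 7.68, 7.10, 9.23 and 7.55 on 1 of 3 member probe sets, with line differences of -1.11, -1.05 and -2.20, the last -1.45 with the floor. FN1, fibronectin, read 12.42, 11.97, 13.53 and 12.05 on 1 of 3 member probe sets, with -1.03, -1.01 and -1.00, and the 3 other probe sets above the highest control gave -0.94, -0.87 and -0.69. FBN1, fibrillin-1 of the microfibrils, read 8.32, 8.11, 9.35 and 7.74 and gave -1.39. COL4A6, a basement membrane collagen chain, had 2 member probe sets (-1.08 and -1.02). For FN1 and ITGB3 the level was lower with sh4 in both lines, by more in PC3-EMT14.

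In a list of 24 matrix genes 1 (THBS1) was higher and 0 were lower at the limit by the brightest probe set, with a median of -0.07. The list had 1 lower member probe set, so FN1, HAPLN1, COL4A6 and ITGB3, with more than 1 each, are not in it. Its values thus do not cover these genes. Signalling genes were found in the same class. BMP6, a ligand of the bone morphogenetic protein family, read 6.94, 6.69, 8.86 and 7.10 and gave -1.51. TGFBI, a matrix protein induced by TGF-beta, read 7.40, 7.48, 9.82 and 8.64 and gave -1.26 with no array leading. With SMAD7 (-1.04), dim on all arrays, and GREM1, a BMP antagonist with 1.36, or 0.64 with the floor, 3 of 26 TGF-beta and BMP genes were lower and 1 higher at the limit, and the median was 0.02. EPHA4, a receptor of ephrins, read 6.50, 5.90, 7.78 and 5.67 and gave -1.52, or -1.28 with the floor, whereas its brightest probe set gave 0.16. PLPP3, a lipid phosphate phosphatase that degrades lysophosphatidic acid, had 3 member probe sets (-1.40, -1.21 and -1.16) and read 8.87, 8.91, 9.88 and 8.51 on 1. ENPP1, which makes pyrophosphate from ATP outside the cell, had 2 (-1.28 and -1.24) and read 7.64, 7.04, 9.77 and 7.89 on 1. GBX2, a homeobox factor, read 7.81, 8.30, 9.22 and 8.15 and gave -1.57. Of long non-coding RNAs, SLC26A5-AS1 read 8.04, 7.97, 10.20 and 9.01 on the brighter of 2 member probe sets (-1.12 and -1.84), and EFCAB13-DT read 6.60, 6.01, 8.60 and 6.21 (-1.79). Against the untransduced arrays the line difference was -1.15 for the FN1 probe set at -1.03, -1.50 for the PLPP3 probe set at -1.40, -1.01 for the SLC26A5-AS1 probe set at -1.84 and -0.79 for the HAPLN1 probe set at -1.11. It had the opposite sign, at 0.42, for the HAPLN1 probe set at -2.20, and was 0.48 for the ENPP1 probe set at -1.28 and 0.76 for TGFBI. The value shrank to -0.29 for ITGB3, -0.39 for FBN1, -0.32 for GBX2, -0.52 for BMP6 and -0.52 for EFCAB13-DT on the probe sets read above. For the COL4A6 probe sets at -1.08 and -1.02 it was -0.72 and -0.22, and for the EPHA4 probe set at -1.52 it was -0.74.

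Stress genes of amino acid and protein supply were lower in line difference on balance. The amino acid part of this response is run by ATF4, which raises amino acid synthesis and uptake when protein synthesis is checked. The list also holds genes of the unfolded protein response. Of 22 genes 3 were lower and 0 higher at the limit by the brightest probe set, and 21 lay below 0, with a median of -0.64. Over all 19775 genes 9213 lay below 0. PC3-EMT14-Scr was the highest array for 15 of the 22 and PC3-EMT1-Scr the lowest for 14, against 1 and 4 of 10 reference genes. The median of PC3-EMT14 minus PC3-EMT1 was -0.05 without shRNA, 0.43 with Scr and -0.11 with sh4. DDIT4, an inhibitor of the growth regulator mTORC1, read 9.40, 9.81, 10.20 and 9.44 and gave -1.17, but 0.30 against the untransduced arrays. SESN2, a leucine sensor that also restrains mTORC1, read 8.31, 8.72, 9.12 and 8.53 and gave -1.00, with -1.10 on a second probe set. VLDLR, a lipoprotein receptor, read 6.78, 6.48, 8.01 and 6.69 and gave -1.01. CTH, which makes cysteine, read 7.80, 8.48, 8.76 and 8.00 and gave -1.45 on a probe set that was not its brightest, which gave -0.89. The same was true of TRIB3, a pseudokinase induced by ATF4 (-1.21 and -0.62), and of PSAT1 of serine synthesis (-1.09 and -0.08).

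The 93 members lowest on PC3-EMT14-sh4 were mostly not matched by other probe sets of their genes. Where another probe set of the same gene lay above the highest control, the line difference of the others, turned to the direction of the member, had a median of 0.14 in this class (87 members). The median was 0.69 for members highest on PC3-EMT14-Scr (77), 0.65 for those lowest there (33), 0.72 for those highest on PC3-EMT1-Scr (20) and 0.36 over all members with such a partner (353). Another probe set was at the limit for 7 of 87 (8.05%), against 32 of 77 (41.6%), 12 of 33 (36.4%) and 10 of 20 (50%). In the class lowest on PC3-EMT14-sh4 a brighter probe set of the gene existed for 73 of 78 (93.6%), and the member lay a median of 2.10 below the brightest. Over all probe sets with a partner the share was 63.7% and the gap 0.52.

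The same array had a weaker signal at the 5′ end of its control transcripts. The array's own probe sets for ACTB, beta-actin, differed between the 3′ and 5′ ends by 2.22 on PC3-EMT14-sh4 and by 1.42 to 1.68 on the other 3 arrays. For GAPDH, of glycolysis, the difference was 0.18 against -0.19 to -0.15. The 5′ ACTB probe set read 12.19, 12.41, 12.47 and 11.77 and had the -0.92 named above. A larger gap between the ends is a usual sign of less complete amplified RNA. Its part in the members lowest on PC3-EMT14-sh4 was not tested.

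**Figure D5:**
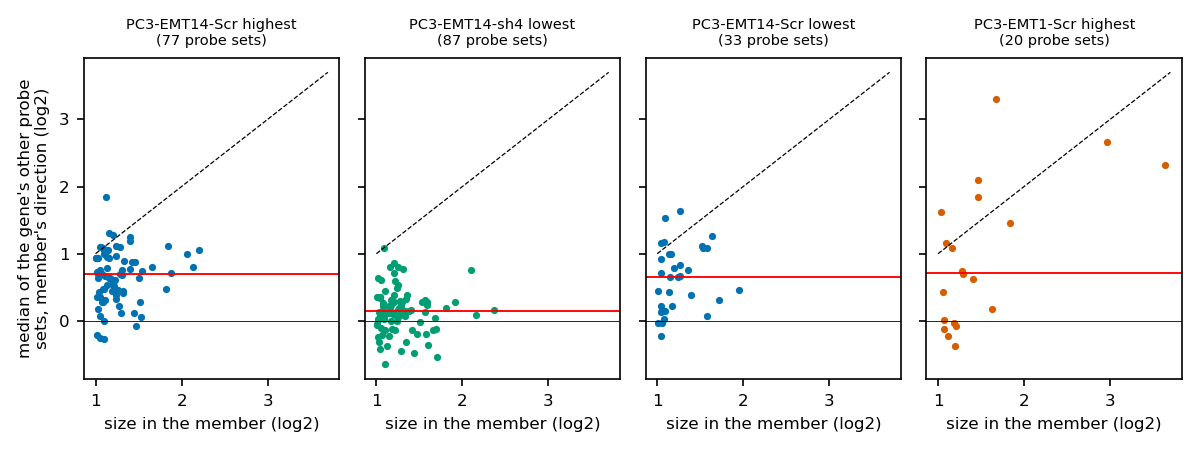
Size of the line difference in a member (x axis, log2) against the median of the other probe sets of its gene above the highest control, turned to the member's direction (y axis, log2), for the 4 most frequent leading arrays. The dashed line marks equal values and the red line the median, which is 0.14 for members lowest on PC3-EMT14-sh4 and 0.69, 0.65 and 0.72 for the other 3 classes.

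Single genes of this class show both cases. TOB1, an antiproliferative adaptor of mRNA deadenylation, read 9.24, 9.30, 9.20 and 7.10 and gave -2.16, whereas its brighter probe set read 10.37, 10.37, 10.19 and 10.10 and gave -0.08. ZNF652, a zinc finger repressor, read 7.83, 7.54, 7.92 and 5.27 and gave -2.36, or -1.63 with the floor, and its 3 other probe sets had a median of 0.16 in that direction. TMEM230, of vesicle traffic, read 11.64, 11.58, 11.80 and 9.94 and gave -1.81, against -0.19 on the other probe set. Probe sets of PIP4K2A, a phosphoinositide kinase (-1.68), RWDD2B (-1.69), ANP32E, a histone chaperone for H2A.Z (-1.61), NFS1, the cysteine desulfurase of iron-sulfur clusters (-1.59), and MTPAP, the mitochondrial poly(A) polymerase (-1.57), had partners whose median, turned to the member's direction, ran from -0.36 to 0.24. SOCS2, a feedback inhibitor of cytokine and growth hormone signalling, read 7.97, 8.62, 7.75 and 6.31 and gave -2.10, with -0.75 on its other probe set. MALAT1, a long nuclear RNA, had 4 member probe sets, 2 of them with no leading array and values of -1.31 and -1.28 and 2 lowest on PC3-EMT14-sh4 at -1.92 and -1.58 (-0.41 with the floor). Its other probe sets differed in sign, and the brightest gave 0.44. SERPINB3, a protease inhibitor whose probe set may also bind its near copy SERPINB4, read 7.55, 7.66, 8.13 and 6.30 and gave -1.94. ESCO1, an acetyltransferase of cohesin, had 2 member probe sets (-1.31 and -1.25), against -0.29 on its brightest.

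Some of the remaining members were led by a PC3-EMT1 array, and others described here by no array or, for EHF, by PC3-EMT14-Scr. GALNT12, which starts O-linked glycosylation of mucins, was lowest on PC3-EMT1-Scr on 2 probe sets, with 6.90, 7.80, 8.35 and 7.72 (-1.53) on 1 and -1.01 on the other. TNFSF15, a cytokine of the TNF family, read 6.71, 7.89, 8.51 and 8.59 and gave -1.10. CXCL8, the chemokine interleukin-8, was highest on PC3-EMT1-sh4 with 10.31, 11.71, 10.42 and 10.40 (-1.42), but its brighter probe set read 12.64, 13.11, 12.37 and 13.32 and gave 0.48, so the probe sets of this gene differ in sign. ITGB4, the integrin beta 4 chain of hemidesmosomes, read 8.03, 8.72, 8.04 and 7.71 and gave -1.02, with -1.08 on a second and -0.65 on its brightest. S100A14, an epithelial calcium-binding protein, was higher with sh4 in both lines (5.99, 8.04, 6.38 and 7.41), by more in PC3-EMT1, a line difference of -1.02. HOOK1, a microtubule linker of epithelial cells, and EHF, an epithelial ETS factor, were also higher with sh4 in both lines, but their line differences of -1.23 and 1.17 rest on a Scr level under the highest control in 1 line or both and became 0.32 and -0.18 with the floor.

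Of the remaining lists, by the brightest probe set, epithelial proteases and trafficking had 2 of 23 genes at the limit (S100A14 and HOOK1, both lower), inflammatory cytokines 2 of 27 (SOD2 higher, TNFSF15 lower), epithelial regulators 1 of 14 (EHF), invasion proteases 1 of 18 (MMP10, lower) and cholesterol and fatty acid synthesis 1 of 19 (ELOVL6, higher). EHF, HOOK1 and MMP10 did not keep the limit with the floor. At the limit by the brightest probe set there were 0 of 11 keratins, 0 of 13 EMT transcription factors, 0 of 23 of mesenchymal cytoskeleton or adhesion, 0 of 20 of hypoxia and glycolysis, 0 of 28 immediate early genes, 0 of 18 NRF2 targets, 0 of 8 metallothioneins, 0 of 11 p53 targets, 0 of 13 of the prostate lineage, 0 of 24 of Notch and Wnt signalling, 0 of 30 growth factor receptors and ligands, 0 of 17 annexins and tetraspanins and 0 of 16 of antigen presentation. Their medians ran from -0.26 for EMT transcription factors to 0.14 for the prostate lineage. Heat shock genes had the highest median of those with 0 of their genes (9) at the limit, 0.30. Reference genes had 0 of 10 at the limit and a median of 0.04, although 1 of the dimmer probe sets of YWHAZ, a 14-3-3 protein, was lowest on PC3-EMT14-sh4 and gave -1.07.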

How the data were processed

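Total RNA of the 8 samples was labelled from 250 ng with biotin and hybridised to Affymetrix Human U133 Plus 2.0 arrays, 1 for each sample. The authors made the deposited log2 values with RMA from the affy package, and their version numbers are not given in the sources used here. Transduced arrays are on another scale than untransduced ones, with array medians of 6.55 to 6.56 against 4.87 and 4.88, so levels were compared within each set only. Array number, not read depth, limits the precision: with 1 array for each line and shRNA no test was made.

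Of 54675 probe sets, 41091 had 1 gene symbol, 1801 several and 11721 none, and 62 were controls. Symbols came from an array annotation of older date, updated by Entrez number for 41037 probe sets through a RefSeq gene table (GRCh38.p14). The rule was the response of PC3-EMT14 minus that of PC3-EMT1 on the deposited values, with a limit of log2 1 in size. The floor is the highest of 27 B. subtilis control probe sets on the 4 transduced arrays. Lists were read by the probe set of each gene with the highest mean over the 4 arrays. Genes named are all ZEB1 probe sets, the 15 with the largest and 15 with the smallest line difference in the firm set (1 probe set a gene), genes with 2 or more firm probe sets of 1 direction, members of the 27 lists and the neighbours of the limit. SPP1, ZNF367, EXO1 and SERPINB4 are outside this rule, and SPP1, ZNF367 and EXO1 were chosen after their values were seen. The members and the lists were chosen with earlier results of these data known.

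Alternatives were median centring, quantile normalization and cyclic loess (limma 3.58.1 in R 4.3.3), the floor, 32 added on the linear scale, a filter at log2 7, limits of 1.5-fold and 3-fold, the mean and the brightest probe set of a gene, and untransduced arrays as controls. The computation was tested on simulated data. Differences were computed with pandas 2.3.3 in Python 3.11.15.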

Additional observations from a re-analysis of the deposited data

Results flagged for a closer look

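For 6 genes the lines stood apart in opposite directions, with a response of log2 0.65 or more in each line also with the floor at the highest control; the difference was not tested, since each value is from 1 array. The line differences were 1.94 for CCNE2, 1.66 for CMPK2, 1.91 for EIF5B and 1.43 for IFIT2, which sh4 cells showed lower in PC3-EMT1 but higher in PC3-EMT14. The EIF5B value is from 1 dimmer probe set, and the brightest of that gene was higher with sh4 in both lines, by 0.15 and 0.43, a line difference of 0.28. The line differences were -1.45 for CTH and -2.10 for SOCS2, which sh4 cells showed higher in PC3-EMT1 but lower in PC3-EMT14, and the brightest probe sets of these genes gave -0.89 and -0.75.

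Outside the probe sets with 1 symbol, 104 of 13522 with several or no symbols (0.769%) reached the limit, 27 higher and 77 lower. Of the control probe sets 0 of 62 did.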

How the results depend on the processing

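All values are from 1 array per line and shRNA, so no array could be left out, and a level under the highest control has no reliable size. No paired analysis was possible because no result comes from a test and each line has 1 array per shRNA. Median centring, quantile normalization and cyclic loess moved no count by over 1.5 times and turned no named value, with 473, 437 and 459 of the 473 members still at the limit, and the floor kept 314. The counts at the limit (473, of which 179 higher and 294 lower) became 209, 91 and 118 with 32 added on the linear scale, and 296, 111 and 185 with untransduced arrays as controls. They were 3391, 1583 and 1808 at 1.5-fold, 45, 20 and 25 at 3-fold, 110, 58 and 52 by the mean over all probe sets of 1 gene, and 189, 104 and 85 by the brightest. The lower count was 188 with the floor and 185 with the filter at log2 7. With the floor, members with a 2-fold response in neither line numbered 106 and those with no leading array 76, while those lowest on PC3-EMT1-Scr went from 19 to 5 and those highest on PC3-EMT1-sh4 from 11 to 4. The causes were not tested.

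Signs turned for single genes. With untransduced arrays as controls, on the deposited scales and after quantile normalization of the 6 arrays, the line difference was 0.30 and 0.15 for DDIT4, -1.01 and -1.22 for EHF, 0.48 and 0.67 for ENPP1, -0.036 and -0.11 for GULP1, 0.42 and 0.24 for HAPLN1, and 0.37 and 0.34 for HOOK1. It was -0.065 and -0.31 for IFITM1, 0.68 and 0.56 for MMP10, -0.28 and -0.18 for MX2, -0.36 and -0.44 for NNMT, -0.20 and -0.49 for OAS1, -0.85 and -0.78 for REG4, -0.39 and -0.54 for RGS4, and 0.76 and 0.83 for TGFBI. On 1 of these scales only it turned for SESN2 (0.039, deposited) and IFIT1 (-0.15, quantile). With the floor it was -0.18 for EHF and 0.32 for HOOK1, and by the mean of its probe sets it was -0.058 for EGFR. The EGFR member, a dimmer probe set, gave 1.20. Its 7 other probe sets above the highest control had a median of -0.37, and the brightest gave -0.45.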
